A study of Mus musculus with 16 samples.

Results

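Vdr, the vitamin D receptor gene, and 4 genes of the vitamin D-controlled uptake of dietary calcium (S100g, Trpv6, Atp2b1 and Cyp24a1) were followed along the small intestine and after vertical sleeve gastrectomy (VSG). They were chosen by gene symbol from the 48440 genes of the tables, and all 5 were found. RNA had been sequenced from GFP+ cells of female Lgr5-EGFP mice, in which the green fluorescent protein is made from Lgr5, a gene of intestinal stem cells. All mice had been on a diet with 60% fat for 16 weeks, and 6 cm of each segment was collected 4 weeks after the operation, 15 minutes after a liquid meal. In VSG mice the lateral part of the stomach was cut away, and in sham mice the stomach was only pressed with forceps. Each of 4 VSG and 2 sham mice gave 1 duodenal and 1 jejunal library. For the ileum there were 2 VSG and 2 sham libraries, of which 3 came from these 6 mice. Replicate numbers name the mouse within a surgery group, so VSG 1 and sham 1 are different animals. Groups of 2 sham mice limit every comparison.

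Active vitamin D binds its receptor in the nucleus, and the receptor, paired with a retinoid X receptor, switches on genes that carry calcium across the enterocyte. Trpv6 makes the calcium channel of the brush border, S100g makes calbindin-D9k, which carries calcium through the cytoplasm, and Atp2b1 makes a plasma membrane pump that pushes calcium out toward the blood. Cyp24a1 makes the enzyme that inactivates vitamin D and is itself switched on by the receptor. The duodenum is the segment best known for this active transport.

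The tables hold counts that were normalized within each segment, and their libraries were worth between 10.9 M and 63.6 M reads. Between 65.1% and 78.1% of genes were at 0 in a library. Lgr5 was listed at 0 in sham 1 of the jejunum and of the ileum and was between 152 and 6565 normalized counts in the other 14 libraries. VSG 1 of the jejunum had 196951 normalized counts of Fabp6, a bile acid binding protein of the ileum, against 15.8 to 313 in the other jejunal libraries. Where leaving out 1 of these libraries moved a value of a member by over 1.5 times, the value without it is given too. The sorted cells also held enterocyte RNA, since all 17 enterocyte markers were detected in each segment and surgery group, with Apoa1, Apoa4, Anpep and Sis among the most abundant. In bulk RNA of this kind, fewer cells of a type and less RNA per cell cannot be told apart. The replicates of a group are separate mice, and limma p-values set a difference between groups against the spread between mice. Limma estimates that spread with the help of all genes tested.

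Vdr was among the more abundant genes of the sorted cells in all 3 segments. Its duodenal VSG libraries had 23226, 24786, 20269 and 24972 normalized counts, and its sham libraries had 22235 and 39089. In the jejunum the VSG libraries had 19137, 12240, 15457 and 19697, and the sham libraries had 13788 and 10841. In the ileum, VSG 4 and VSG 5 had 9173 and 9435 normalized counts and the sham libraries had 11941 and 5254. VSG and sham libraries overlapped in each segment, and the highest duodenal value belonged to sham 2. Among the genes above 0 in a library, Vdr stood between the 92.4th and the 99.2nd percentile.

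**Figure D1:**
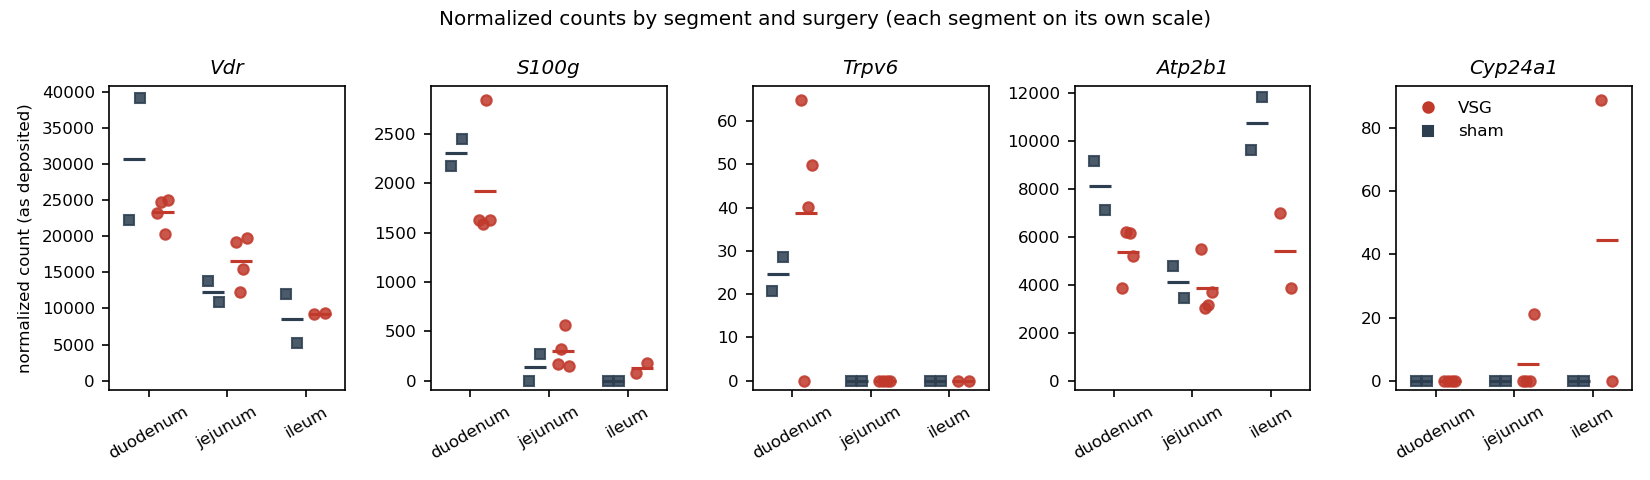
Normalized counts as deposited (y axis) of the 5 genes in each segment (x axis), with 1 point per library, squares for sham, circles for VSG and a line at each group mean. S100g is highest in the duodenum and low or at 0 beyond it, and Trpv6 is low in the duodenum and at 0 beyond it. The VSG points of Atp2b1 lie below the sham points in the duodenum and in the ileum.

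S100g was a gene of the duodenum. The duodenal VSG libraries had 1633, 1593, 2845 and 1625 normalized counts and the sham libraries had 2176 and 2449. In the jejunum the VSG libraries had 173, 324, 567 and 150.5, and the sham libraries had 0 and 270. The ileal VSG libraries had 82.2 and 176 normalized counts, worth 136 and 257 reads, while both ileal sham libraries were listed at 0. Every duodenal library was therefore above every library of the other segments. Trpv6, the channel, was far rarer. Its duodenal VSG libraries had 64.9, 0, 40.1 and 49.8 normalized counts and its sham libraries had 20.7 and 28.5, worth at most 54.4 reads. Trpv6 was listed at 0 in all 6 jejunal and all 4 ileal libraries.

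A listed 0 was common at these levels. Of the 2792 genes whose duodenal mean was within a factor of 2 of that of Trpv6, 16.2% were at 0 in every jejunal library and 53.1% in every ileal library. Of 2851 genes near the S100g level of the ileal VSG libraries, 32.8% were at 0 in both ileal sham libraries, and of 3072 genes near its level in the other jejunal libraries, 24.3% were at 0 in jejunal sham 1. The zeros of S100g and Trpv6 are for this reason given as listed. A log2 value against a listed 0 depends on the pseudocount of 1 and is neither a fold change nor a bound.

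Atp2b1 had another order. The duodenal VSG libraries had 3893, 6207, 6167 and 5200 normalized counts, all below the 9175 and 7124 of the sham libraries. The jejunal VSG libraries had 5506, 3046, 3182 and 3689, around the 4805 and 3463 of the sham libraries. In the ileum the VSG libraries had 6989 and 3855, below the 9635 and 11862 of the sham libraries. Cyp24a1 was listed at 0 in 14 of 16 libraries. Its 2 other values came from the same mouse, VSG 4, with 21.1 normalized counts (36 reads) in the jejunum and 88.9 (147 reads) in the ileum, and none in its duodenum. Of 2515 genes near that ileal value in VSG 4, 34.9% were at 0 in the other 3 ileal libraries, and of 2153 genes near the jejunal value, 29.3% were at 0 in the other 5 jejunal libraries. VSG 4 was the deepest library of both segments.

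The first question was how the genes are placed along the intestine. The segments had been normalized separately, so all 16 libraries were put on 1 scale by the median ratio over 7291 genes, which divided duodenal values by about 1.42 and ileal values by about 0.589. Differences between segments were then taken within each mouse, as log2 of the jointly scaled count plus 1, and are given without a test. On the deposited scale mean Vdr was 2.88-fold higher in the duodenum than in the ileum, and on the joint scale the ratio was 1.20. Jointly scaled Vdr was 18184 ± 4840 (SD, n = 6) for duodenal, 15148 ± 3687 (SD, n = 6) for jejunal and 15188 ± 4696 (SD, n = 4) for ileal libraries. The ranges of the 3 segments overlapped and no pair of neighbours in this order differed beyond its spread. Within mice, the duodenal minus jejunal log2 difference of Vdr was 0.26 ± 0.59 (SD, n = 6), positive in 3 mice and negative in 3. The duodenal minus ileal difference was 0.45 ± 1.05 (SD, n = 3), and the largest value, 1.62, came from sham 2. It was -0.13 without sham 2 and 0.89 without sham 1. The apparent slope of the receptor gene thus depended on the scale on which it was read.

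S100g was higher in the duodenum than in the jejunum on each scale tried. Its jointly scaled level was 1447 ± 363 (SD, n = 6) in duodenal libraries, 0 to 577 in jejunal libraries and 0 to 297 in ileal libraries. The duodenal level was higher in 6 of 6 mice than the jejunal one. In the 5 mice with a jejunal value above 0 it was 3.45 to 7.43 times as high, a log2 difference of 2.38 ± 0.55 (SD, n = 5). Of 16048 genes compared, 1.93% were higher in the duodenum than in the jejunum in every mouse with a mean log2 difference above 1, and S100g was the 1 member among them. Against the ileum, the ratio was 8.17 in VSG 4 and both sham mice were listed at 0 in the ileum. A duodenal excess over the ileum by the same rule was frequent, at 21.7% of 15777 genes, and S100g and Trpv6 were in it. The jejunum exceeded the ileum by this rule in 12.5% of 15602 genes, none of them members. Jejunal and ileal S100g overlapped.

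A ratio within 1 library needs no scale between segments. S100g was 6.27% to 14.04% of Vdr in the 6 duodenal, 0% to 3.67% in the jejunal and 0% to 1.87% in the ileal libraries. The duodenal ratios did not overlap with the others. Atp2b1 was 16.8% to 41.3% of Vdr in duodenal, 18.7% to 34.8% in jejunal and 40.9% to 226% in ileal libraries.

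Atp2b1 was highest in the ileum. Its jointly scaled level was 4419 ± 1172 (SD, n = 6) in duodenal, 3921 ± 918 (SD, n = 6) in jejunal and 13768 ± 5998 (SD, n = 4) in ileal libraries. All 4 ileal libraries, from 6504 upward, were above all 12 others on the joint scale, of which the highest was 6270. With libraries scaled to the same total, ileal VSG 5 (6539) was below duodenal sham 1 (6611). Within mice the duodenal minus ileal log2 difference was -1.70 ± 0.31 (SD, n = 3) and the jejunal minus ileal difference was -2.02 ± 0.45 (SD, n = 3), negative in 3 of 3 mice each. By the same rule, 6.05% of genes were lower in the duodenum than in the ileum and 4.36% lower in the jejunum than in the ileum, with Atp2b1 the 1 member in each set. The duodenal minus jejunal difference was 0.16 ± 0.58 (SD, n = 6), positive in 4 of 6 mice, and was 0.38 without VSG 1 and 0.096 without sham 1. By the rule, 1.16% of genes were lower in the duodenum than in the jejunum, with no member among them. On the deposited scale mean Atp2b1 was only 1.28-fold higher in the ileum than in the duodenum, against 3.12-fold on the joint scale.

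**Figure D2:**
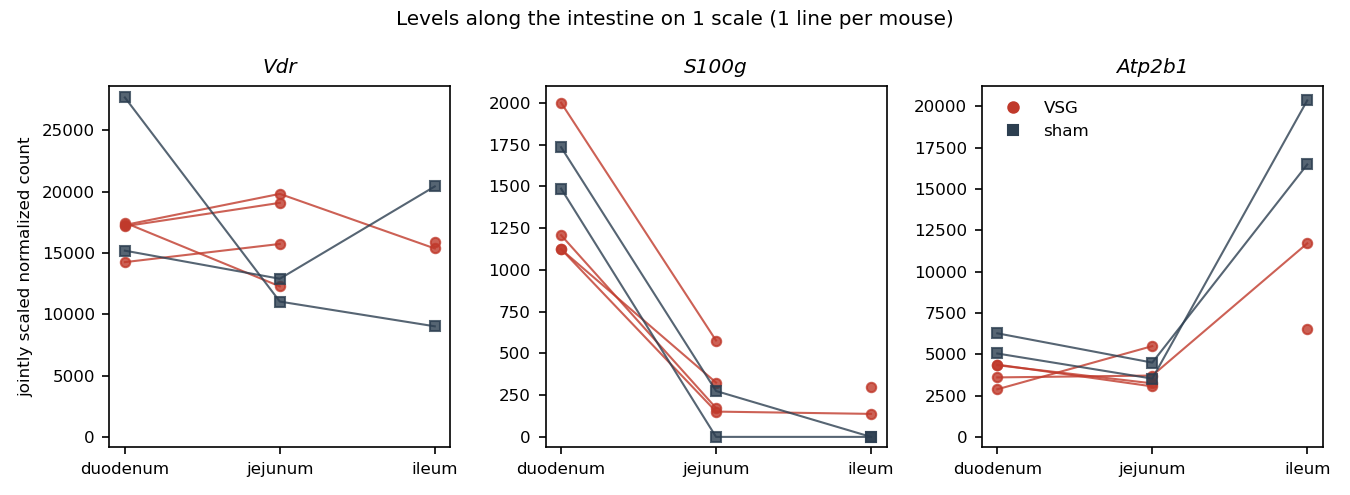
Jointly scaled normalized counts (y axis) of Vdr, S100g and Atp2b1 in the 3 segments (x axis), with 1 line per mouse, squares for sham and circles for VSG. Vdr lines cross with no common direction, S100g is lower in the jejunum than in the duodenum in all 6 mice, and Atp2b1 is highest in the ileum of the 3 mice with all segments.

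The makeup of the sorted cells moved along the intestine as well. The jointly scaled sum of 12 stem cell markers had a median of 91422 in duodenal, 62135 in jejunal and 22701 in ileal libraries. The sum of 17 enterocyte markers went the other way, with medians of 738852, 1107550 and 1755700. The part of these shifts in the slopes of S100g and Atp2b1 was not tested.

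Per kilobase of the principal transcript, which allows genes to be compared, the duodenal order was Vdr at 4161 ± 1107 (SD, n = 6), S100g at 3014 ± 755 (SD, n = 6), Atp2b1 at 620 ± 164 (SD, n = 6) and Trpv6 between 0 and 20.8 jointly scaled counts. The ranges of Vdr and S100g overlapped, while Atp2b1 lay below both and Trpv6 below all 3. In the ileum the order of Vdr at 3475 ± 1075 (SD, n = 4) and Atp2b1 at 1931 ± 841 (SD, n = 4) was kept with overlapping ranges, and S100g, at 0 to 620, lay below both.

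The promoters of S100g and Trpv6 are shown because these were the members listed highest in the duodenum and low or at 0 beyond it. Both are the 250 bases before the gene's start in RefSeq (GRCm38.p6), written in the direction of the gene, both on the minus strand. Capitals mark AGGTCA, the half-site bound by nuclear receptors of the vitamin D receptor's family, or its reverse complement TGACCT. S100g (ENSMUSG00000040808, a gene of 3 exons at chrX:162961992-162964599) has its window at chrX:162964600-162964849. Trpv6 (ENSMUSG00000029868, a gene whose principal transcript has 15 exons at chr6:41620624-41636405) has its window at chr6:41636406-41636655.
S100g: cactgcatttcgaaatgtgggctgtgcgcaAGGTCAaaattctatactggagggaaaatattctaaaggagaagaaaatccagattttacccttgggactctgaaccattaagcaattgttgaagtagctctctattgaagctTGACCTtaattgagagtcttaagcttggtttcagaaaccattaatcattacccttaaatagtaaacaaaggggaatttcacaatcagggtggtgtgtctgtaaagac
Trpv6: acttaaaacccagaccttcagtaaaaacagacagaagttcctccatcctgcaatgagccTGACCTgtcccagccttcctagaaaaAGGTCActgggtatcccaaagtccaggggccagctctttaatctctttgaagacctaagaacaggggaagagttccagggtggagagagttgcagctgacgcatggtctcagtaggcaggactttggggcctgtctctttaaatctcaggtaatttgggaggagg
Each window held 2 matches, at -220 and -107 from the start in S100g and at -191 and -165 in Trpv6, with 1 on each strand. Of 32536 promoter windows of the same length, 14.04% held at least 1 match and 1.37% at least 2, counting both strands. Neither held DR3, the tandem pair of half-sites 3 bases apart that the receptor is known to prefer, searched on both strands allowing A or G at base 1, G or T at base 3 and C or G at base 5 of each half-site. DR3 was in 0.221% of windows. TATAAA, in 12.3% of windows, was in neither. The window of Vdr (chr15:97908297-97908546) and those of Atp2b1 (chr10:98914392-98914641 and chr10:98914902-98915151) held no AGGTCA. Each held at least 3 copies of GGGCGG, found in 8.54% of windows. These windows lie within or overlap the GENCODE spans of Vdr (chr15:97854425-97910630, minus strand) and Atp2b1 (chr10:98914406-99026143, plus strand). Cyp24a1 (chr2:170482708-170497145, minus strand) was not in the promoter table. A match is a stretch of letters and no sign of binding.

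The second question was what VSG changed. Limma was run in each segment with the Benjamini-Hochberg adjustment over all genes tested there, and a gene counted as called when its unadjusted p was under 0.05, its adjusted p under 0.2, its log2 change past 0.5 in size and its mean over 50. None of the members was called in any segment. Calls were rare in all genes, at 0.0237% of 16867 duodenal, 0.0126% of 15857 jejunal and 0.0% of 13853 ileal tests. At an unadjusted p under 0.05 these shares were 6.27%, 6.04% and 3.28% (455 ileal genes). Of 11 tests of members, 1 passed that level, Atp2b1 in the duodenum. The rarity of calls depended on the method. Limma without the trend called 43 duodenal, 61 jejunal and 463 ileal genes. With DESeq2 at the same thresholds, the study reported far more altered genes in each segment than were called here.

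**Figure D3:**
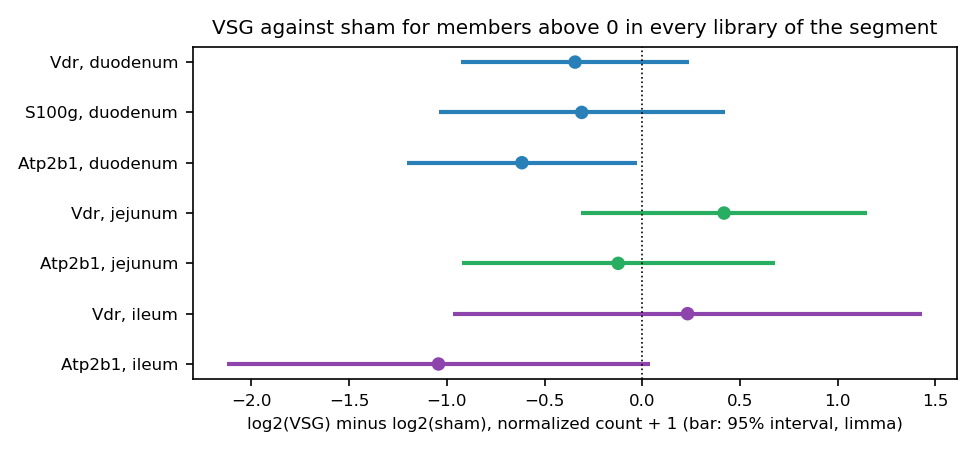
Log2 difference of VSG minus sham (x axis) with its 95% interval from limma for the members above 0 in every library of a segment (y axis), with 1 color per segment. The interval of duodenal Atp2b1 ends just below 0, and the others include 0.

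Every VSG library of Atp2b1 was below every sham library in the duodenum and in the ileum, though neither difference passed the adjusted test. In the duodenum, the VSG mean was 5367 ± 1087 (SD, n = 4) and the sham mean 8149 ± 1450 (SD, n = 2) normalized counts, a log2 change of -0.62 (95% interval -1.20 to -0.03) with an unadjusted limma p of 0.0415 and a limma adjusted p of 0.769. All 4 VSG libraries were below both sham libraries, as they were for 8.01% of all genes. The exact two-sided permutation test, which doubles the smaller tail, gave p = 0.133, the smallest it can give for 4 against 2 libraries. In the ileum the change was -1.04 (95% interval -2.12 to 0.04, limma adjusted p = 0.736), and both VSG libraries were below both sham libraries, as for 11.6% of genes. The smallest exact permutation p of 2 against 2 libraries is 0.333. Sham 1, sham 2 and VSG 4 gave libraries to both segments, so these are not separate sets of animals. In the jejunum the change was -0.12 (95% interval -0.92 to 0.68, limma adjusted p = 0.926), and it was 0.11 without sham 1 and -0.31 without VSG 1.

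Enterocyte markers moved with duodenal Atp2b1. All 17 enterocyte markers were lower in VSG than in sham in the duodenum, 7 of them at an unadjusted limma p under 0.05, with a median log2 change of -0.76, and their summed level was 512126 to 1112490 normalized counts in VSG against 1180190 to 1746110 in sham libraries. All 17 were lower in the jejunum too, where the median was -0.997 and Atp2b1 libraries overlapped, and 9 of 17 were lower in the ileum, with a median of -0.09. Other marker lists differed between the duodenal groups too. The 5 tuft cell markers summed to 13736 to 29159 normalized counts in VSG and 4503 to 11014 in sham libraries. Markers of the proximal intestine, a list that shares Fabp1 and Lct with the enterocyte list, summed to 72363 to 105878 in VSG libraries. In sham libraries they summed to 156085 to 194250. Of 7 stroma and endothelium markers tested, 6 were lower after VSG, 3 of them at an unadjusted limma p under 0.05, with a median log2 change of -4.56 and sums of 0.722 to 319.8 in VSG and 284 to 2864 in sham libraries. All 11 pancreas markers tested were higher after VSG, 1 at an unadjusted limma p under 0.05, and 10 of 11 were at 0 in both sham libraries, but their sums, 210 to 11569 in VSG and 142 to 362 in sham libraries, overlapped. Of 10 immune markers, 6 were at 0 in all duodenal VSG libraries and 7 in both sham libraries, Cd3e among them, and the 3 that could be tested were higher after VSG, 1 at an unadjusted limma p under 0.05, with a median of 1.60.

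In the ileum, where Atp2b1 and S100g libraries separated by surgery, other lists separated as well. Of 11 stem cell markers tested, 9 were higher after VSG, 1 at an unadjusted limma p under 0.05, with a median log2 change of 1.65 and sums of 15969 to 21926 normalized counts in VSG and 6885 to 10749 in sham libraries. The 7 goblet cell markers summed to 146270 to 191344 in VSG and 81110 to 135957 in sham libraries. The 5 markers of the ileum summed to 42567 to 90855 in VSG and 168568 to 240806 in sham libraries. Immune markers summed to 78.6 to 374 in VSG and 0 to 3.49 in sham libraries. Stroma and endothelium markers summed to 126 to 230 in VSG and 466 to 579 in sham libraries. Pancreas markers summed to 132 to 161 in VSG libraries and were at 0 in sham libraries. Sums of the enterocyte, proximal, Paneth, enteroendocrine and tuft lists overlapped. The part of depth or of any of these lists in the values of the members was not tested.

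Vdr showed no change past the test. Its log2 change was -0.34 (95% interval -0.93 to 0.24, limma adjusted p = 0.880) in the duodenum. The jejunal change was 0.42 (-0.31 to 1.15, limma adjusted p = 0.790) and the ileal one 0.23 (-0.97 to 1.43, limma adjusted p = 0.891). The duodenal value rested on sham 2, and without it was 0.063. The ileal value was -0.36 without sham 2 of the ileum and 0.82 without sham 1. The jejunal value stayed between 0.25 and 0.65 over all alternatives.

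S100g also overlapped between the surgery groups in the duodenum, with a log2 change of -0.31 (95% interval -1.04 to 0.42, limma adjusted p = 0.900). In the jejunum it was -0.036 without sham 1, the library listed at 0. The value with that library was 4.01 (limma adjusted p = 0.760), and it became a call at 8.05 (limma adjusted p = 0.0363) when sham 2 was left out and the library at 0 was the 1 sham library that remained. In the ileum both VSG libraries were above 0 and both sham libraries at 0, and every VSG library was above every sham library for 17.0% of all genes there. The adjusted limma p was 0.736, so an ileal change did not pass the test. Trpv6 libraries overlapped in the duodenum, where VSG 2 was at 0 and the other VSG libraries were above both sham libraries. Its adjusted limma p was 0.979, and the sign of its log2 change, -0.40, turned with the pseudocount and without VSG 2. Among 2676 genes of like level in the other duodenal libraries, 44.3% were at 0 in VSG 2. Cyp24a1 in the ileum, with 1 library above 0, had a log2 value of 3.24 and a limma adjusted p of 0.736. Without VSG 5, the VSG library at 0, it was 6.49 (limma adjusted p = 0.000659), which was no call because the mean was under 50, and with quantile normalization it was 0.13.

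The effect of VSG was also compared between the duodenum and the jejunum, through the jejunal minus duodenal log2 difference of each of the 6 mice. Adjusted p under 0.2 was reached by 0.0% of 14718 genes, with 604 genes at an unadjusted limma p under 0.05. The VSG effect on Vdr was 0.76 ± 0.41 (standard error) higher in the jejunum than in the duodenum (limma adjusted p = 0.948), and it was 1.34 without sham 1 and 0.18 without sham 2. For Atp2b1 the difference was 0.49 ± 0.47 (standard error, limma adjusted p = 0.965), and 0.16 without VSG 1. For S100g it was 4.31 ± 1.90 (standard error, limma adjusted p = 0.948), and without sham 1 it was 0.36. The negative duodenal and positive jejunal values of Vdr were therefore not shown to differ.

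The genes around the members were read from 5 lists, of which 52 of 61 genes were tested in the duodenum and the jejunum and 53 in the ileum. In the duodenum 8 of 52 had an unadjusted limma p under 0.05, 1 higher and 7 lower after VSG, beside 6.27% of all genes (470 higher and 587 lower). In the jejunum it was 9 of 52, 3 higher and 6 lower, beside 6.04% (576 higher and 381 lower). In the ileum it was 6 of 53, 1 higher and 5 lower, beside 3.28% (290 higher and 165 lower). The median log2 change over the tested list genes was -0.01, -0.07 and 0.00, against 0.01, 0.11 and 0.24 over all genes. No list median gives a common direction to the calcium genes. Calcium transport genes other than the members had medians of 0.11, 0.35 and -0.10.

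Among calcium genes Stim1, the sensor of calcium stores, was lower in the duodenum, at 2046 ± 490 (SD, n = 4) in VSG and 3778 ± 91.7 (SD, n = 2) in sham libraries, a log2 change of -0.92 (unadjusted limma p of 0.0121, adjusted p = 0.574). This did not pass the adjusted threshold. The partners of the receptor included Ncoa3, a coactivator, which had 2152 to 3602 normalized counts in duodenal VSG libraries and 677 to 1007 in sham libraries (log2 change 1.70, limma adjusted p = 0.292). In the ileum Ncoa3 had 1271 and 1936 in VSG and 174 and 277 in sham libraries (log2 change 2.83, limma adjusted p = 0.736). Sham 1, sham 2 and VSG 4 gave libraries to both the duodenal and the ileal set. The jejunal log2 change of Ncoa3 was -0.46 (limma adjusted p = 0.850). Its relative Ncoa2 had a log2 change of -1.09 in the jejunum and Crebbp, another coactivator, of -3.59 in the ileum, with limma adjusted p of 0.760 and 0.736.

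Other targets of the receptor had the lowest medians, -1.36, -1.67 and -0.49 from the duodenum to the ileum. In the duodenum 9 of 11 were lower and 5 of these had an unadjusted limma p under 0.05. The 2 called genes were Akp3, an intestinal alkaline phosphatase, and Abcc2, an export pump of conjugates. Abcc2 had 4093 to 6334 normalized counts in VSG and 14779 to 20885 in sham libraries, a log2 change of -1.86 (limma adjusted p = 0.196), and Akp3 a log2 change of -2.64 (limma adjusted p = 0.196). Both calls were lost with a pseudocount of 0.5 (limma adjusted p = 0.228), without a filter (0.404) and with a filter at a mean of 50 (0.213). They were also lost with libraries scaled to the same total (0.233) and without VSG 4 (0.6002). The Abcc2 call was lost in limma without the trend (0.225) and without VSG 3 (0.252) too. Akp3 was -2.67 without sham 2 and was not called there, in a fit with 1 sham library left. The replicate block also lost both calls (limma adjusted p = 0.801), but it joins different mice by number and leaves few degrees of freedom, so that loss says little. Alpi, a near relative of Akp3 whose reads may be split with it, had a log2 change of -1.36 (limma adjusted p = 0.336) in the duodenum and -1.67 (limma adjusted p = 0.733) in the jejunum. These values were also the medians of the list in those segments, and Alpi is on the enterocyte list too. Abcb1a, the P-glycoprotein gene, had -2.22 in the duodenum (limma adjusted p = 0.333) and -1.39 in the ileum (limma adjusted p = 0.736). Cyp3a11, which breaks down bile acids and drugs, had 150 to 474 normalized counts in jejunal VSG and 2857 to 5921 in sham libraries, a log2 change of -3.66 (limma adjusted p = 0.404). Fgf15, a hormone gene of the ileum, stood the other way in the jejunum, with 51.1 to 13821 normalized counts in VSG libraries and 0 and 48.9 in sham libraries (log2 5.97, limma adjusted p = 0.760). Without VSG 1 the Fgf15 value was 4.31 and without sham 1, its library at 0, it was 3.15. Jejunal Alpi was -1.08 without sham 1. The list was drawn up with earlier results of these mice known, and its direction is no independent evidence.

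**Figure D4:**
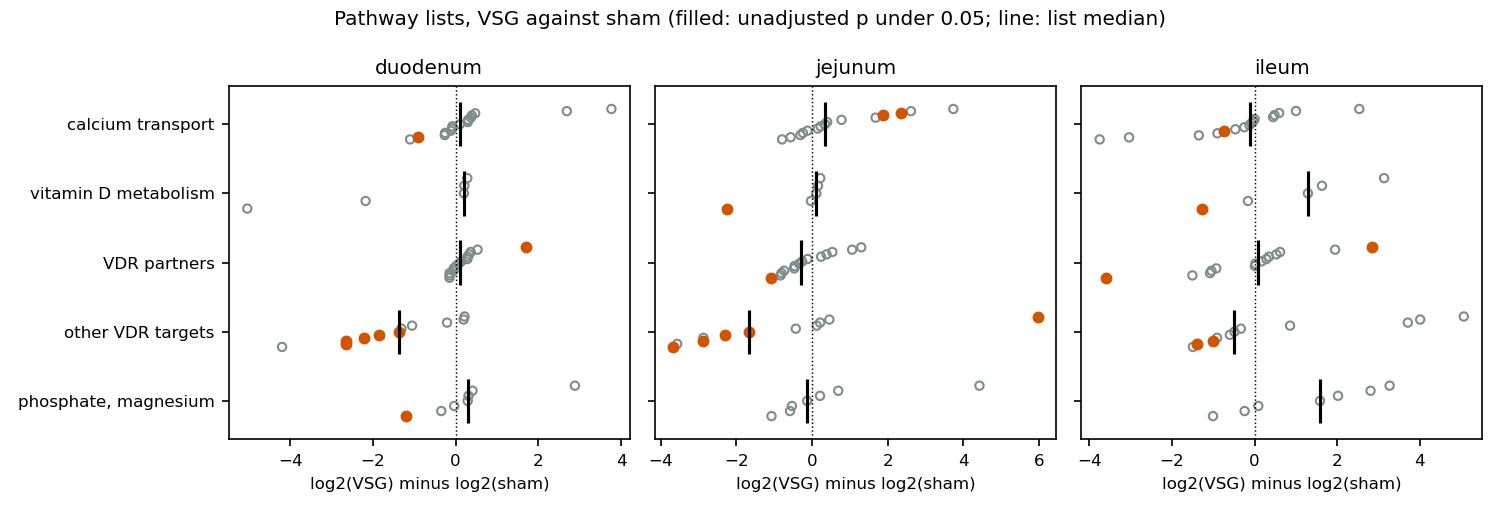
Log2 difference of VSG minus sham (x axis) for each tested gene of 5 lists (y axis) in the 3 segments, filled where the unadjusted limma p was under 0.05, with a line at each list median. The other targets of the receptor have medians of -1.36, -1.67 and -0.49, while the calcium transport genes lie on both sides of 0.

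Vitamin D metabolism held few genes with values to compare. Cubn, on this list as a receptor for vitamin D bound to its carrier protein, had 9764 and 17509 normalized counts in ileal VSG libraries. It had 26696 and 37583 in ileal sham libraries, a log2 change of -1.28 (limma adjusted p = 0.736). Whether Cubn serves vitamin D uptake in the intestine was not tested. Slc20a2, a phosphate transporter, was at 983 ± 235 (SD, n = 4) in duodenal VSG and 2228 ± 348 (SD, n = 2) in sham libraries (limma adjusted p = 0.522), and Slc34a2, another, was at 7046 and 7268 in ileal VSG and 12795 and 16018 in ileal sham libraries (limma adjusted p = 0.736). Along the intestine, 4 of 16 calcium transport genes beside the members were higher in the ileum than in the duodenum in 3 of 3 mice with a mean log2 difference past 1, against 6.05% of all genes. Among them Orai1, a calcium channel opened by emptied stores, had jointly scaled means of 668 in the duodenum and 2545 in the ileum. Trpm6, a magnesium channel, had 44.8 in the duodenum and 2365 in the ileum, and Cubn had 0 to 3139 in the duodenum and 16363 to 64525 in the ileum. Slc34a2 had 122 in the duodenum and 20520 in the ileum of the same 3 mice. Other genes were higher in the duodenum by this rule. Akp3 had 14924 there and 94.9 in the ileum, Rxrb, a partner of the receptor, had 1687 and 941, and Slc37a2, a sugar phosphate exchanger, and Cyp2r1, a vitamin D 25-hydroxylase, had 698 and 20.9 and were listed at 0 in the ileum of all 3 mice. Of 11 other targets of the receptor, 5 were higher and 5 lower in the duodenum than in the ileum.

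The genes most like each member were sought among 12907 others by Pearson's r of the log2 jointly scaled counts over the 16 libraries, which share mice and segments. Nearest to Vdr were Knop1 (r = 0.82), Tecr (r = 0.79) and Oxa1l (r = 0.78). Nearest to S100g were Kif15 (r = 0.97), Snhg4 (r = 0.97) and 4632404H12Rik (r = 0.96). All had their highest mean in the duodenum and their lowest in the ileum, an order that a choice by r with S100g favors. The r values of S100g also lean on its listed zeros, whose log2 value depends on the pseudocount. Nearest to Atp2b1 were Muc3 (r = 0.93), Arpc2 (r = 0.88) and Nucb1 (r = 0.88), each highest in the ileum, which the choice by r likewise favors. Among the members, Vdr had an r of 0.35 with S100g and -0.15 with Atp2b1, and S100g and Atp2b1 had an r of -0.65.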

How the data were processed

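PolyA RNA of sorted GFP+ cells had been read as 85 nt single-end, strand-specific libraries. The authors used STAR 2.5.3a for alignment to mm10, Salmon 0.6.0 for quantification and DESeq2 for normalization within each segment, and per the file headers the deposited tables hold these normalized counts, a signal with the library depth divided out. Low values of a library were whole multiples of 1 read for only 55.5% to 79.9% of genes (within 0.01 reads), so no count model was used. The deposited differential tables hold the authors' fold changes and p-values, and no value was taken from them. No column of per-sample values was left without a sample (0 unused). Libraries that the study's methods exclude for low mapping were not analysed here.

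VSG was compared with sham within each segment by limma 3.58.1 (R 4.3.3) with a mean trend on log2(normalized count + 1) for genes with a mean above 10, and by an exact permutation test of single genes (scipy 1.17.1). The pseudocount shrinks the log2 change of low genes, while a library at 0 beside higher ones can enlarge or turn it. All libraries were rescaled jointly by the median ratio, and segments were described, not tested. Intervals are for the difference between groups, and their width follows from the spread between mice as limma estimates it. A value of 0 allows at most 3 reads, worth 1.76 to 6.21 normalized counts, for counting error alone. Gene positions and lengths came from GENCODE M21 (GRCm38). Scripts were tested on data with known changes.

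The members and lists were chosen with earlier results of these data known. Beside the members, the text names by a set rule up to 4 genes per list and segment with the smallest p under 0.05 and no overlap of groups, up to 4 per list and pair of segments, and the 3 genes most like each member. Some genes that the rule names are not reported here. Alternatives were another pseudocount, filter, scaling or threshold, limma without the trend, a replicate block and leaving out each mouse.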

Additional observations from a re-analysis of the deposited data

Results flagged for a closer look

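Among 13 groups or sets of mice of the members, 5 had a value far from the others by Dixon's criterion. For independent normal values, chance alone reaches it in about 1 of 20 groups. All flags but that of duodenal S100g rest on listed zeros, and both flags of Cyp24a1 rest on the same library. The number of flags can therefore not be set against that rate. S100g had 2845 normalized counts in duodenal VSG 3, above the 1593 to 1633 of the other duodenal VSG libraries. The duodenal minus jejunal log2 difference of S100g was 10.54 in sham 1, whose jejunal library was listed at 0. That of Trpv6 was 0 in VSG 2, where both segments were listed at 0. Cyp24a1 had 21.1 normalized counts in jejunal VSG 4 and 0 in the other jejunal VSG libraries, and its duodenal minus jejunal difference was -4.47 in that mouse. VSG 4 also had 1144 genes above 0 that were at 0 in the other jejunal libraries and 2050 such genes in the ileum, with 81 genes in both.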

How the results depend on the processing

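The counts of genes called moved with the processing. The duodenum had 4 calls, and 0 with a pseudocount of 0.5, without a filter, with a filter at a mean of 50, with libraries scaled to the same total, at an adjusted p under 0.05 or with the replicate block, against 10 with a pseudocount of 10 and 43 in limma without the trend. Leaving out each mouse gave 0 to 259 (259 without sham 1, 47 without sham 2, 12 without VSG 1, 0 without VSG 4). The jejunum's 2 calls became 61 without the trend, 1 at an adjusted p under 0.05, 0 with the replicate block and 1 to 2710 without each mouse (2710 without sham 2, 16 without sham 1). The ileum's 0 became 3 with a pseudocount of 10, 463 without the trend and 0 to 631 without each mouse (625 without VSG 4, 631 without VSG 5). With 1 library left in a group, that library is assumed to vary like the other group. The cause of these shifts was not tested.

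Log2 changes after VSG reversed for Vdr in the duodenum (-0.75 to 0.063 without each mouse) and the ileum (-0.36 to 0.82), for Trpv6 (0.17 with a pseudocount of 10, 0.26 with quantile normalization, -0.99 to 1.03 without each mouse), for S100g in the jejunum (-0.036 to 8.05) and for Atp2b1 in the jejunum (0.10 with libraries scaled to the same total, 0.0058 with the replicate block, -0.36 to 0.11 without each mouse). Ileal S100g became a call without the trend (6.92, limma adjusted p = 0.115) and without VSG 4 (6.38 to 7.47 without each mouse), and its jejunal minus duodenal VSG effect ranged from 0.36 to 8.27. Duodenal Atp2b1 stayed between -0.80 and -0.43 and ileal Atp2b1 between -1.47 and -0.61, never called. Without both doubted jejunal libraries, an alternative chosen after seeing the data, the duodenal minus jejunal difference was 0.37 for Vdr, 2.28 for S100g and 0.35 for Atp2b1. Segment differences were not recomputed for Trpv6 and Cyp24a1, which rest on zeros. Same-numbered VSG and sham libraries deviated together with correlations of only -0.05 to 0.05, from different mice, so the numbers pair no samples; the ileum shares no number.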
